A study of Bos taurus with 30 samples.

Results

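SLC27A6, FADS2 and SLC22A5 are 3 of the 8073 genes named on a bovine array that set the caruncle against the intercaruncular endometrium of the same pregnant uterus. They were chosen from results of these same animals: each had a large mean ratio over all animals once the sign of the artificial insemination group was turned, with at least 13 of 14 animals on one side. Each gene was measured by 1 probe printed as 2 adjacent spots. The gene identifiers in the annotation are 537062 for SLC27A6, 521822 for FADS2 and 541266 for SLC22A5.

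SLC27A6 belongs to the fatty acid transport proteins, which promote uptake of long-chain fatty acids and can couple them to coenzyme A. FADS2 is the desaturase at the entry of the path from linoleic and alpha-linolenic acid to longer polyunsaturated fatty acids such as arachidonic acid, from which the endometrium makes prostaglandins. SLC22A5 is the sodium-dependent carnitine transporter of the plasma membrane, and carnitine is the carrier on which long-chain acyl groups enter mitochondria for oxidation.

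The study hybridised 30 arrays of 2 colours, 2 for each of 15 cows. The pregnancies came from somatic cell nuclear transfer (SCNT, cloning; 5 cows), from transfer of an embryo fertilised in vitro (IVF-ET; 5 cows) or from artificial insemination (AI; 5 cows). Breed, age and stage of pregnancy were not given in the sources used here, and no further treatment is named. The caruncles are the gland-free knobs to which the placenta attaches, and the glands lie in the endometrium between them.

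The deposited log ratios compare both tissues of one animal and were read as log2, since the base of the logarithm is not stated. They were also read as already turned to the tissues, whichever dye each tissue carried. This choice decides the values: read as dye ratios instead, the 3 genes had group means between -0.15 and 0.27, and limma called 2132 of 13818 probes over all animals with no sign turned, against 0 on the reading used here. Neither the labels nor the files say which tissue is on top of the ratio, so values are given as lying on its positive or negative side. The sign of the AI group against the others is also unsettled. Its mean profile correlated over probes at -0.29 with SCNT and at -0.27 with IVF-ET, while SCNT and IVF-ET correlated at 0.45. Single AI arrays lay between -0.56 and 0.47 against the SCNT profile. They also agreed weakly with the other AI animals, at -0.28 to 0.16. The arrays of AI replicate 4 lay at -0.56 and -0.17 against the SCNT profile, and those of replicate 5 at 0.18 and 0.14. Turning the whole group thus also turns replicate 5, which already lay on the SCNT side. AI values are therefore given as deposited, with the turned value where groups are compared. Both arrays of IVF-ET replicate 3 carry the same dye labels and correlated at -0.39, so that animal was left out and 14 animals remained. In those 14, the arrays of an animal correlated over probes between -0.054 and 0.79. The arrays held 26744 to 27643 spots with a value, and the RNA integrity numbers in the labels ran between 7.5 and 9.5.

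SLC27A6, the fatty acid transport protein, had the widest spread of the 3 genes in SCNT and IVF-ET animals. Its log2 ratios in SCNT replicates 1 to 5 were 1.57, -0.033, 0.94, 1.25 and 2.45. In IVF-ET replicates 1, 2, 4 and 5 they were 1.74, 0.099, 0.52 and 0.74. In AI replicates 1 to 5 they were -0.043, -0.38, -1.28, -0.94 and -0.11, as deposited. All 4 IVF-ET animals and 4 of 5 SCNT animals thus lay on the positive side and all 5 AI animals on the negative side; SCNT replicate 2, at -0.033, lay just above the highest AI animal at -0.043, so as deposited neither SCNT nor IVF-ET overlapped AI. SCNT and AI did not overlap at 2.84% of all probes as deposited and 0.826% with AI turned, and IVF-ET and AI at 3.32% and 1.48%. With the AI sign turned, the AI animals ran between 0.043 and 1.28 for SLC27A6 and overlapped both groups. The group means were 1.24 ± 0.91 in SCNT (SD, n = 5), 0.77 ± 0.69 in IVF-ET (SD, n = 4) and -0.55 ± 0.54 in AI (SD, n = 5). On the log2 reading the tissues differed by 2.35-fold in SCNT, 1.71-fold in IVF-ET and 1.47-fold in AI, the last on the other side. In bulk tissue, fewer cells of a type and less RNA per cell cannot be told apart. One animal carried much of the IVF-ET mean, which was 0.45 without replicate 1.

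FADS2, the desaturase, was more even among SCNT and IVF-ET animals. SCNT replicates 1 to 5 had log2 ratios of 1.11, 0.56, 0.83, 0.69 and 0.12. IVF-ET replicates 1, 2, 4 and 5 had 1.31, 0.35, 1.23 and 0.96. AI replicates 1 to 5 had 0.83, -0.64, -0.61, -0.55 and -0.026. Every SCNT and IVF-ET animal lay on the positive side, while AI replicate 1 lay among them and the other 4 AI animals lay on the negative side. With AI turned the 5 AI animals ran between -0.83 and 0.64 and also overlapped both groups. The means were 0.66 ± 0.37 in SCNT (SD, n = 5), 0.96 ± 0.44 in IVF-ET (SD, n = 4) and -0.20 ± 0.63 in AI (SD, n = 5). The AI mean rested on single animals: it was -0.46 without replicate 1 and -0.088 without replicate 2, and lay at -0.093 and -0.11 without replicates 3 and 4.

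SLC22A5, the carnitine transporter, was positive in all 9 SCNT and IVF-ET animals as means of their arrays. SCNT replicates 1 to 5 had log2 ratios of 1.11, 0.03, 0.64, 0.57 and 1.48. IVF-ET replicates 1, 2, 4 and 5 had 1.43, 0.52, 0.68 and 0.72. AI replicates 1 to 5 had -0.63, -0.036, -0.95, -0.94 and 0.35. As deposited, SCNT and AI overlapped through SCNT replicate 2 and AI replicate 5, and IVF-ET did not overlap AI. With AI turned the AI animals ran between -0.35 and 0.95 and overlapped both. The means were 0.77 ± 0.55 in SCNT (SD, n = 5), 0.84 ± 0.41 in IVF-ET (SD, n = 4) and -0.44 ± 0.58 in AI (SD, n = 5). For scale, every animal lay on one side at 14.4% of probes in SCNT, 21.9% in IVF-ET and 4.93% in AI.

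**Figure D1:**
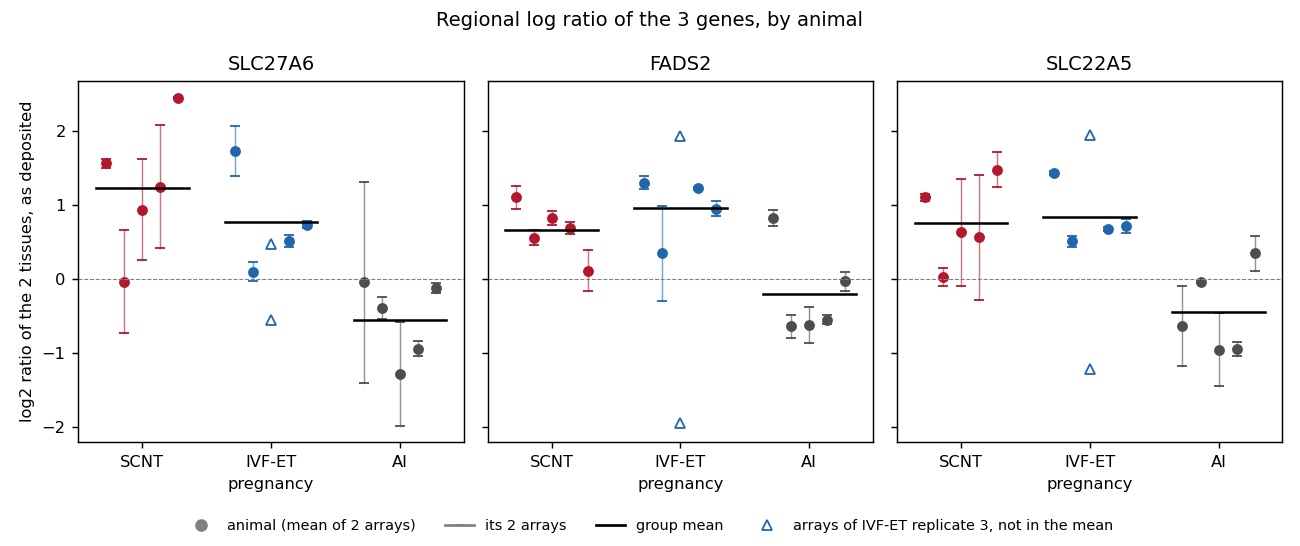
Log2 ratio of the 2 tissues (y axis, as deposited) of SLC27A6, FADS2 and SLC22A5 in SCNT, IVF-ET and AI animals (x axis). Points are animals in replicate order, bars join the 2 arrays of an animal, black lines are group means, and open triangles are the arrays of IVF-ET replicate 3, which lie on opposite sides of 0 for each gene and are not in the mean.

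These values chose the genes, so they are a description and carry no test. With the AI sign turned, the mean of the group means was 0.85 for SLC27A6, 0.68 for SLC22A5 and 0.61 for FADS2, which placed them at ranks 4, 6 and 7 among named genes past the threshold with at least 13 of 14 animals on the positive side. Over all probes, with no such condition, their ranks were 13, 26 and 35. The choice took 10 genes; the last inside it was PFKFB3 at 0.53 and the next outside was GSTM3 at 0.51. Of all tested probes, 3.17% passed an adjusted p of 0.05 in that comparison. Each of the 3 genes was positive in 13 of 14 animals after turning, a count that the choice itself required and that 1.62% of probes reached on either side.

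Repeat measurement differed among the genes. The 2 spots of a probe lay close on an array, with median gaps between 0.061 and 0.21 over the 3 genes and 3 groups. The 2 arrays of an animal lay further apart for SLC27A6 in SCNT, with a median gap of 1.37. SCNT replicate 4 had 2.08 and 0.42 for SLC27A6 on its arrays, and SCNT replicate 2 had 0.66 and -0.73. AI replicate 1, at -0.043 as a mean, had 1.32 on one array and -1.40 on the other. Its mean near 0 is thus the average of 2 opposite readings. For FADS2 the median gap was 0.19 in SCNT, 0.19 in IVF-ET and 0.25 in AI. For SLC22A5 it was 0.48 in SCNT, 0.11 in IVF-ET and 0.48 in AI, and its largest gap in SCNT was 1.69. The arrays of an SCNT animal lay on the same side for SLC22A5 in 2 of 5 animals, against 4 of 5 for SLC27A6 and for FADS2. SLC27A6 was positive on 9 of 10 SCNT arrays, 7 of 8 IVF-ET arrays and 1 of 10 AI arrays. FADS2 was positive on 9 of 10, 7 of 8 and 3 of 10 in the same order of groups, and SLC22A5 on 7 of 10, 8 of 8 and 2 of 10. The effect that followed the dyes was 0.027 for SLC27A6, 0.053 for FADS2 and 0.22 for SLC22A5; 9.93% of probes had a larger one than SLC22A5.

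IVF-ET replicate 3, which the choice did not use, had opposite readings on its arrays for each gene. Kept with its second array turned, it would bring the IVF-ET mean to 0.38 for FADS2 and 0.35 for SLC22A5. With its first array turned instead, these means would be 1.16 and 0.99. Over probes, its first array correlated at -0.46 with the mean of the other IVF-ET animals, and its second at 0.45. On these 2 arrays FADS2 lay at -1.94 and 1.93, SLC22A5 at -1.21 and 1.95, and SLC27A6 at -0.56 and 0.47. On the same arrays the median of the epithelial markers was -1.28 and 1.30, and that of the stromal markers 0.73 and -1.10. Within each array the 3 genes shared the side of the epithelial markers.

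SCNT and IVF-ET were compared because that difference is the contrast the choice of genes used least. SLC27A6 was higher on the ratio in SCNT by 0.46 (SE 0.42, 95% interval -0.43 to 1.35; limma adjusted p = 0.922). FADS2 differed by -0.30 (SE 0.29, interval -0.91 to 0.32; limma adjusted p = 0.922). SLC22A5 differed by -0.072 (SE 0.31, interval -0.72 to 0.58; limma adjusted p = 0.985). No difference exceeded the spread between animals, and the intervals leave room for differences of up to 1.35 for SLC27A6. Over the array, limma called 0 of 13818 probes (0%), with 609 at an unadjusted p under 0.05. Single animals moved these values: that of SLC27A6 was 0.16 without SCNT replicate 5 and 0.78 without IVF-ET replicate 1, and that of SLC22A5 changed sign, to 0.13 without IVF-ET replicate 1 and to 0.11 without SCNT replicate 2.

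The distance of SCNT and IVF-ET from AI depended on the AI sign. For SLC27A6, SCNT minus AI was 1.79 as deposited and 0.68 with AI turned, and IVF-ET minus AI was 1.33 and 0.22. For FADS2 the SCNT differences were 0.86 and 0.47, and the IVF-ET differences 1.16 and 0.76. For SLC22A5 they were 1.21 and 0.32 in SCNT, and 1.28 and 0.40 in IVF-ET. On either sign the SCNT and IVF-ET means lay above the AI mean for each gene; these differences were not tested, since the choice used them.

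Among the 3 genes, SLC27A6 and SLC22A5 were the most alike across animals. Over the 9 SCNT and IVF-ET animals they had Pearson's r of 0.90 and Spearman's rho of 0.85, and r was 0.80 without the 2 animals farthest from the median of SLC22A5. FADS2 did not share this order: its r was -0.025 with SLC27A6 (rho 0.15) and 0.15 with SLC22A5 (rho 0.33). SCNT replicate 5 set the low values for FADS2. Its 2 arrays had the widest spread over spots, with SDs of 0.83 and 0.73 against a median of 0.41 over arrays. The part of that spread in its values was not tested. That animal had the highest SLC27A6 and SLC22A5 and the lowest FADS2 of the 9, and without it r was 0.67 with SLC27A6 and 0.76 with SLC22A5. These are descriptions of 9 animals, without a p because the pairs were examined after the values were known; the genes share arrays, and SCNT and IVF-ET each hold too few animals for a value of their own.

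**Figure D2:**
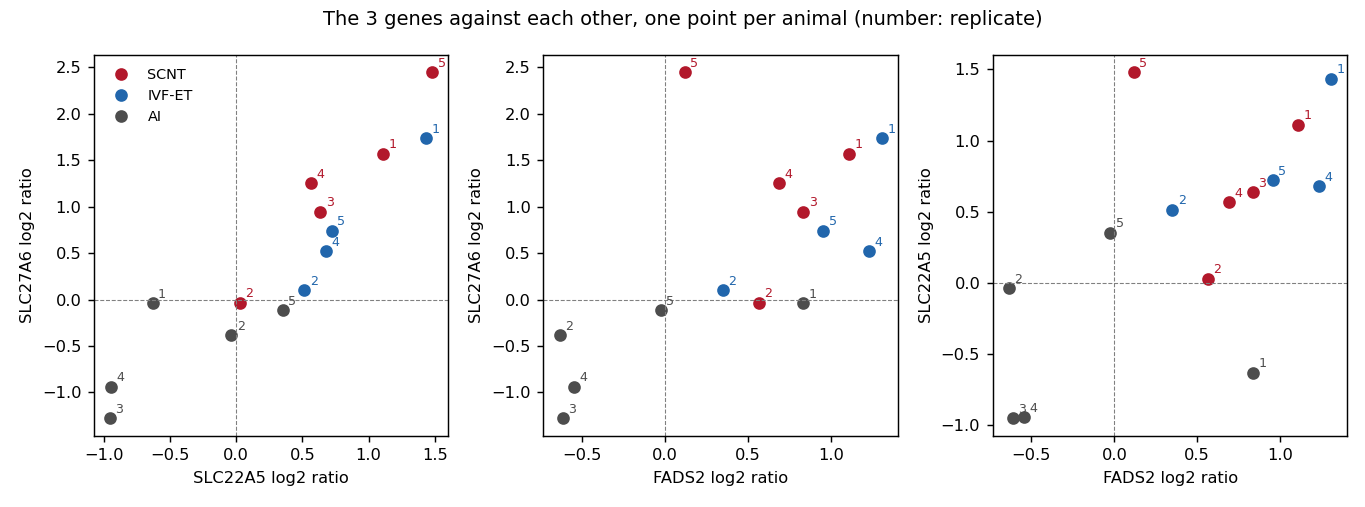
The 3 genes against each other, one point per animal with its replicate number (axes: log2 ratio as deposited; colours: SCNT, IVF-ET, AI). SLC27A6 and SLC22A5 lie along one line in SCNT and IVF-ET animals, while SCNT replicate 5 stands apart wherever FADS2 is on an axis.

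Likeness over all 14 animals was measured by the uncentred correlation, which does not change when the sign of an animal or a group is turned. SLC27A6 and SLC22A5 had 0.94, and each was the second most alike of 13799 other probes to the other. SLC27A6 and FADS2 had 0.71, and FADS2 and SLC22A5 had 0.70. Of all probes, 3.1% were more like SLC27A6 than FADS2 was, and 2.81% were more like SLC22A5 than FADS2 was. Since all 3 genes were chosen for lying on one side in at least 13 of 14 animals, some likeness is built into the choice.

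The named genes most like SLC27A6 were SLC22A5, RTP3, MECOM, CNTRL and ABHD3, at 0.94 to 0.92. For FADS2 they were CYB561, SLC16A11, HOXB8, GRB7 and GALNT6, at 0.94 to 0.93. For SLC22A5 they were CRACDL, SLC27A6, MECOM, LRRFIP1 and ALDH1A1, at 0.94 to 0.90. MECOM stood in the lists of both SLC27A6 and SLC22A5, and no gene of the FADS2 list stood in either. SLC16A11, a monocarboxylate transporter family member, had the largest means of the genes most like FADS2, at 1.04 in SCNT, 1.45 in IVF-ET and -0.63 in AI.

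**Figure D3:**
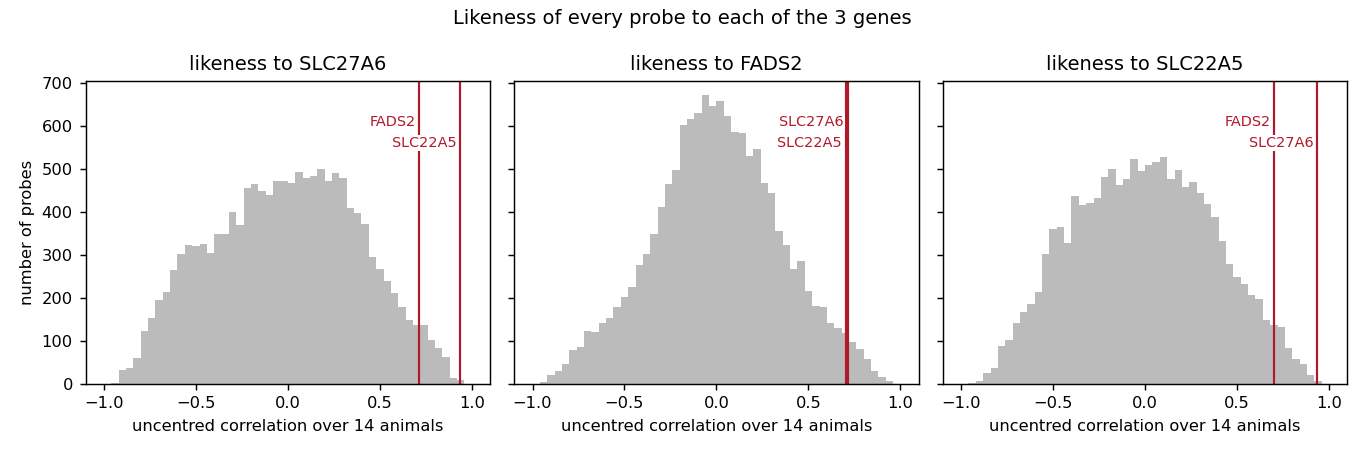
Number of probes (y axis) by their uncentred correlation with each gene over 14 animals (x axis). Red lines mark the other 2 genes: SLC27A6 and SLC22A5 lie in the far tail of each other at 0.94, and FADS2 lies at 0.71 and 0.70.

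Markers of epithelium moved with the 3 genes, and markers of stroma moved against them. Of 20 listed epithelial markers 17 were measured, and the median over them ran from 0.19 to 0.54 in SCNT animals, 0.26 to 0.81 in IVF-ET animals and -0.56 to 0.27 in AI animals. Of 20 stromal fibroblast and matrix markers 16 were measured, with medians of -0.96 to -0.31 in SCNT, -0.70 to -0.19 in IVF-ET and -0.051 to 0.43 in AI. As deposited, the stromal medians of AI animals did not overlap those of SCNT or IVF-ET, and the epithelial medians overlapped in part. With AI turned its stromal medians ran between -0.43 and 0.051 and its epithelial medians between -0.27 and 0.56, and both lists overlapped in every pair of groups. In SCNT, 4 of the 17 epithelial markers passed on the positive side (CGN, DSP, OCLN and EZR), against 0.789% of all probes. On the negative side 7 of the 16 stromal markers passed, among them COL3A1, COL6A3 and EMILIN1, against 1.06%. CGN stood at rank 8 in the choice that took the 3 genes, and the lists were made with earlier results known, so these counts are descriptions. FADS2 had an uncentred correlation of 0.94 with the epithelial median and shared its side in 13 of 14 animals. SLC22A5 had 0.80 with it and SLC27A6 0.75. With the stromal median the order was different: -0.89 for SLC22A5, on the opposite side in 14 of 14 animals, -0.87 for SLC27A6 and -0.68 for FADS2. In SCNT replicate 5, where FADS2 was low and the transporters high, the epithelial median was the lowest of the SCNT animals at 0.19 and the stromal median was -0.86.

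Markers also differed between arrays of an animal. On the first array of AI replicate 1, where SLC27A6 was 1.32, the stromal median was -0.94, and on the second, where SLC27A6 was -1.40, it was 1.22. Over 14 animals the gap between arrays had an uncentred correlation of -0.79 with the stromal gap for SLC27A6, -0.63 for SLC22A5 and -0.25 for FADS2. The gaps had the same direction as the stromal gap in 5, 6 and 5 of 14 animals, so these values rest on the few animals with large gaps. The gap of SLC27A6 went with that of SLC22A5 at 0.75, with the same direction in 5 of 14 animals, and rests on large gaps likewise. Glandular markers, of which 6 of 15 were measured, had animal medians of -0.0027 to 0.47 in SCNT, -0.052 to 0.58 in IVF-ET and -0.31 to 0.085 in AI. Their uncentred correlations with the 3 genes were 0.54 to 0.70. The remaining lists followed the genes less closely. They had -0.36 to -0.23 for trophoblast, -0.32 to -0.021 for smooth muscle and -0.060 to 0.33 for endothelium. Leukocyte markers had 0.19 to 0.29, and red blood cell markers -0.19 to -0.0047. The part of tissue makeup in the ratios of the 3 genes was not tested. Log ratios give no level, so whether a marker is absent from a tissue cannot be read from them.

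**Figure D4:**
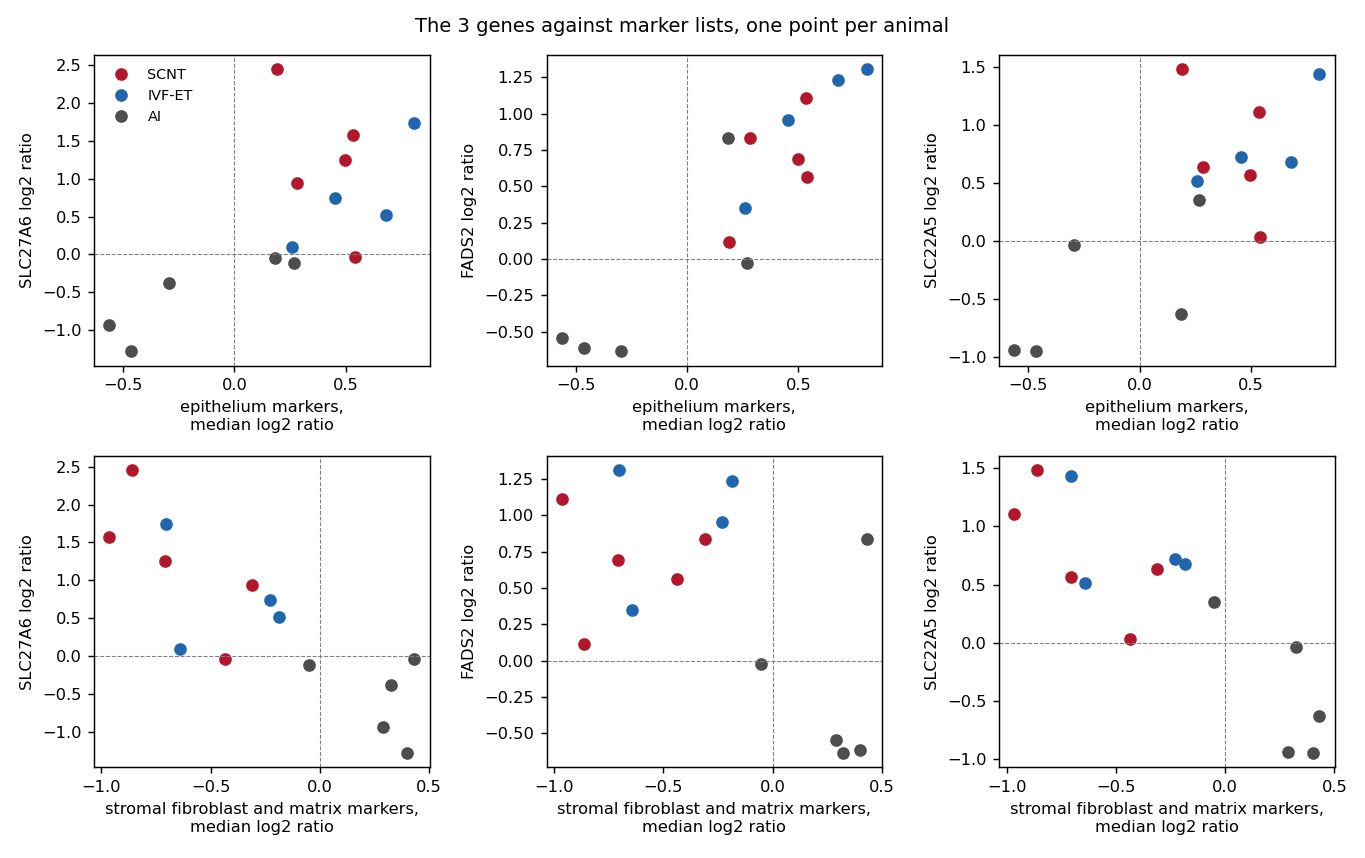
Log2 ratio of each gene (y axis) against the median log2 ratio of 17 epithelial markers (upper row, x axis) and of 16 stromal fibroblast and matrix markers (lower row, x axis), one point per animal of SCNT, IVF-ET and AI. FADS2 follows the epithelial median most closely, and SLC22A5 lies on the opposite side of the stromal median in every animal.

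The measured relatives of FADS2 and SLC27A6 had small mean ratios. FADS1, the desaturase that acts later on the same path, averaged 0.097 ± 0.38 in SCNT, 0.090 ± 0.22 in IVF-ET and -0.073 ± 0.65 in AI (SD, n = 5, 4 and 5). Single animals lay further out. In AI replicates 1 to 5 FADS1 had 1.01, -0.62, -0.30, -0.46 and 0.0080, on the same side as FADS2 in replicates 1 to 4. In SCNT, replicate 1 had 0.77, and FADS1 was positive in 1 of 5 animals, against 5 of 5 for FADS2. FADS3, of the same family, averaged -0.091 in SCNT, -0.058 in IVF-ET and -0.0086 in AI. In the bovine gene order of assembly ARS-UCD2.0, FADS1 and FADS3 are the genes on either side of FADS2. Other fatty acid transport proteins lay near 0 or on the negative side. SLC27A1 averaged -0.17 in SCNT, -0.13 in IVF-ET and -0.028 in AI, and SLC27A2 -0.21, -0.20 and -0.058. SLC27A4 lay between -0.023 and 0.019 in the 3 groups. None of these 5 relatives passed the test in any group. Of all tested probes 1.85% passed in SCNT and 0% in IVF-ET and in AI, so this count does not set the relatives apart.

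SLC22A5 and SLC27A6 lie on the same chromosome of that assembly, with 17 protein-coding genes between them. Genes near them had mixed ratios. ISOC1 and FBN2, on either side of SLC27A6, averaged -0.11 and -0.42 in SCNT and -0.22 and -0.36 in IVF-ET, against 0.20 and 0.26 in AI. Beside SLC22A5, IRF1 averaged -0.56 in SCNT, 0.086 in IVF-ET and 0.13 in AI. A little further from SLC22A5, P4HA2 averaged -0.29, -0.0074 and 0.18 in these groups, PDLIM4 -0.23, 0.33 and -0.018, and IL5 0.022, 0.20 and 0.094. These values carry no test of their own here.

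Of 141 other genes listed for fatty acid and carnitine metabolism, 92 were tested, and they lay on both sides of 0. In SCNT limma called 0 of the 92, against 1.85% of all tested probes; the lowest adjusted p was 0.0681, and 19 genes were under 0.05 before adjustment, as were 2043 of all 13818 probes. Their median was -0.0073 and 43 lay above 0. In IVF-ET 0 were called, with 9 at an unadjusted p under 0.05 and a median of -0.013, and in AI 0, with 4 and a median of -0.020. All tested probes also gave 0 calls (0%) in IVF-ET and in AI, with 1097 and 609 at an unadjusted p under 0.05. With AI turned, the contrast that chose the 3 genes, 4 of the 92 passed, all on the positive side (4.35%). On that side 1.58% of all probes passed. With AI as deposited 0 of the 92 passed, so the count rests on that turn. Over all probes the calls were 438 with AI turned and 0 as deposited. The calls and adjusted p-values of these 4 genes are therefore descriptions. The count was 2 without IVF-ET replicate 1 and 7 without AI replicate 1, where all probes gave 167 and 636 calls. The count in SCNT was 4 when arrays were not averaged and the animal was a random block, and 2 without AI replicate 5. In SCNT 522 and 266 of all 13818 probes were called in these settings.

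The 4 genes act at different steps. ECI2, an isomerase for the oxidation of unsaturated fatty acids, averaged 0.60 ± 0.36 in SCNT, 0.53 ± 0.093 in IVF-ET and -0.35 ± 0.59 in AI (limma adjusted p = 0.0143 with AI turned; positive in all 9 SCNT and IVF-ET animals and 1 of 5 AI animals). ACOX2, a peroxisomal oxidase of branched-chain acyl groups and bile acid intermediates, averaged 0.42 ± 0.15 in SCNT, 0.28 ± 0.30 in IVF-ET and -0.29 ± 0.30 in AI (limma adjusted p = 0.0136; positive in 5 of 5 SCNT and 3 of 4 IVF-ET animals and 1 of 5 AI animals). CPT1A, which loads long-chain acyl groups onto carnitine at the mitochondrial surface, averaged 0.45 ± 0.40 in SCNT, 0.22 ± 0.29 in IVF-ET and -0.23 ± 0.13 in AI (limma adjusted p = 0.0388; positive in 4 of 5 SCNT and 4 of 4 IVF-ET animals and 0 of 5 AI animals). PNPLA2, the lipase that starts triglyceride breakdown, averaged 0.15 ± 0.25 in SCNT, 0.56 ± 0.19 in IVF-ET and -0.079 ± 0.050 in AI (limma adjusted p = 0.0143; positive in 4 of 5 SCNT and 4 of 4 IVF-ET animals and 0 of 5 AI animals). Each of the 4 had a smaller mean than SLC27A6, FADS2 and SLC22A5 in both SCNT and IVF-ET. Since the 3 genes were chosen for a large mean, this order is largely built into the choice.

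By role, the counts are too small to set against shares of 1.85% in SCNT and 0% in IVF-ET and AI over all probes, so they are given as descriptions. None of the 13 uptake and binding genes passed in any group. FABP3, a cytosolic fatty acid carrier, had the mean farthest from 0 among the other listed genes over SCNT and IVF-ET, at -1.18 ± 1.39 in SCNT, -1.14 ± 1.17 in IVF-ET and -0.43 ± 1.57 in AI, with SCNT animals between -3.47 and -0.025. Its spread between animals was as wide as its mean (limma adjusted p = 0.305 in SCNT). Of 9 activation genes none passed; ACSL1, which couples long-chain fatty acids to coenzyme A, averaged 0.40 in SCNT, 0.33 in IVF-ET and -0.052 in AI. Of 13 desaturation and elongation genes besides FADS2 none passed. Of 6 synthesis genes none passed. FASN, the fatty acid synthase, averaged -0.71 ± 0.75 in SCNT, -0.17 ± 0.59 in IVF-ET and 0.063 ± 0.24 in AI. Its second probe gave -0.22 in SCNT, -0.022 in IVF-ET and -0.29 in AI, the last on the other side from the first probe.

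For carnitine, 3 transport and synthesis genes besides SLC22A5 were tested and none passed. SLC25A20, the carrier of acylcarnitines across the inner mitochondrial membrane, averaged -0.034 in SCNT, -0.079 in IVF-ET and -0.016 in AI. Of 5 acyl transfer genes CPT1A alone passed, and that in the turned contrast. CPT2, which returns the acyl group to coenzyme A inside the mitochondrion, averaged 0.24 in SCNT, 0.090 in IVF-ET and -0.10 in AI, while CPT1B and CPT1C lay between -0.096 and 0.042. Thus the means of the plasma membrane carnitine transporter and CPT1A were on the positive side in SCNT and IVF-ET, and that of the inner membrane carrier was near 0. CPT1A passed in neither group (limma adjusted p = 0.0814 in SCNT and 0.774 in IVF-ET). Its animals ran between -0.064 and 0.88 in SCNT and between 0.0050 and 0.64 in IVF-ET.

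Of 21 oxidation genes ECI2 and ACOX2 passed in the turned contrast, and ACAD9 and DECR2 lay on the negative side in SCNT at -0.49 and -0.42 without passing. Much of both means came from SCNT replicate 5, at -1.40 for ACAD9 and -1.55 for DECR2. That animal, whose arrays had the widest spread over spots, was also the lowest of the SCNT animals for FABP3, FASN and SREBF1. Of 12 genes of lipid storage and release PNPLA2 passed in the turned contrast; LIPE, the hormone-sensitive lipase, averaged 0.25 in SCNT by one probe and -0.12 by its other. Of 10 transcription factors none passed. SREBF1, which drives lipid synthesis genes, averaged -0.95 ± 2.17 in SCNT, where 3 of 5 animals were positive and one lay at -4.83, and 0.014 in IVF-ET and 0.20 in AI. SREBF2, its relative for cholesterol genes, averaged 0.26 in SCNT, 0.48 in IVF-ET and -0.12 in AI.

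**Figure D5:**
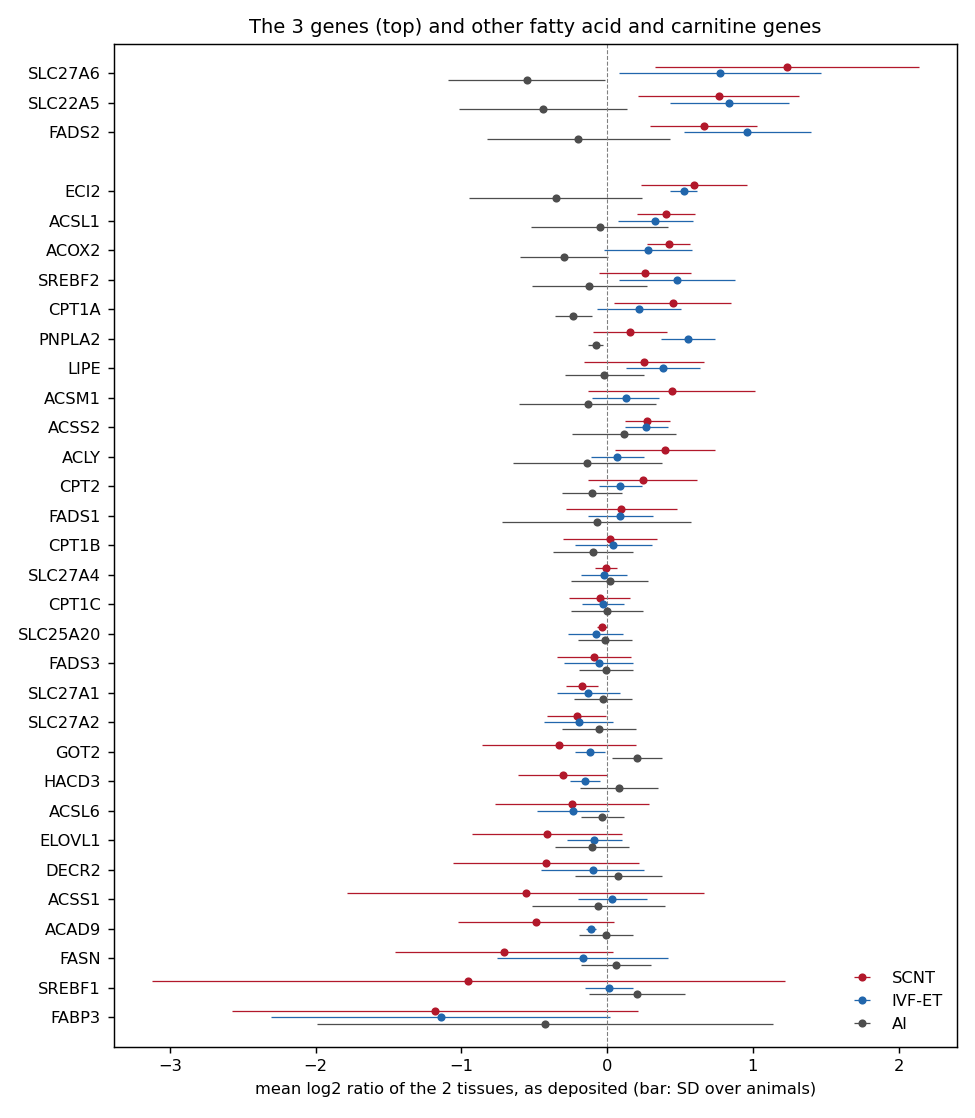
Mean log2 ratio of the 2 tissues as deposited (x axis; points SCNT, IVF-ET and AI, bars SD over animals) for the 3 genes at the top and 29 other fatty acid and carnitine genes in order below. The 3 genes, which were chosen for a large mean, have the largest positive means in SCNT and IVF-ET. Most other genes lie within 0.5 of 0, and FABP3 and SREBF1 have the widest bars.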

How the data were processed

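For 30 arrays the authors deposited a centred log ratio per spot, taken here as a log2 value; its normalisation, base and channel order are not given in the sources used here. Per the labels' protocols, RNA was labelled with Cy3 or Cy5 through aminoallyl nucleotides. The 27648 spots were centred on each array's median and averaged in adjacent pairs to 13824 probes. The platform annotation gave 1 symbol to 8645 probes, several to 105 and none to 5074.

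Values were read as already turned to the tissues. Each probe's dye effect was removed before averaging over the arrays of an animal, which is the replicate. IVF-ET replicate 3 was left out. limma 3.58.1 (R 4.3.3) fitted a mean per group to 13818 probes with values in at least 4 animals of SCNT and AI and 3 of IVF-ET, two-sided, with Benjamini-Hochberg adjustment over all of them and a threshold of 0.05. The fit was tested on simulated data. Alternatives were the reading as dye ratios, the dye effect, array scaling, IVF-ET replicate 3 kept, the animal as a block, the filter on missing values, each spot alone and each animal left out.

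The 3 genes and all lists were chosen with earlier results of these data known. Other pathway genes were named by taking the 20 with the largest absolute mean over SCNT and IVF-ET animals, plus the nearest relatives, and the 5 named genes most like each of the 3. The 4 genes called in the turned contrast fall under that rule. SCNT and IVF-ET correlations, gaps between arrays and neighbouring genes were examined after the values were seen. Replicate numbers follow accession order. Array numbers run with the groups, so an effect of array order cannot be told apart from the groups. Arrays carry no counting depth, and the number of animals limits the precision. Signal over background was not analysed here.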

Additional observations from a re-analysis of the deposited data

Results flagged for a closer look

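SLC27A6 lay on the positive side in every IVF-ET animal and on the negative side in every AI animal, with a difference of the means of 1.33 as deposited. The difference was not tested, since these values chose the gene, and with the AI sign turned it was 0.22. As deposited, IVF-ET and AI did not overlap at 3.32% of all probes. IVF-ET replicate 2 at 0.099 and AI replicate 1 at -0.043 lay nearest 0, each with its 2 arrays on opposite sides. No animal stood apart from its group by Dixon's criterion in any of the 9 sets of a gene and a group.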

How the results depend on the processing

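No paired analysis was possible because the replicate numbers follow accession order and name different animals in each group; the tissues of an animal are already paired on each array. Reading the values as dye ratios (Cy5 over Cy3) had the widest effect, and the cause was not tested. The SLC27A6 difference of SCNT minus IVF-ET became -0.26. SLC27A6 became -0.15 in SCNT, 0.14 in AI and -0.058 over all animals; FADS2 became -0.024 in SCNT and 0.045 in AI; SLC22A5 became 0.27 in AI. The count of other pathway genes called was then 1 in AI and 0 over all animals. Of all probes that reading called 0 in SCNT, 1 in IVF-ET, 360 in AI, 0 over all animals with AI turned and 2132 with AI as deposited, against 256, 0, 0, 438 and 0. Keeping IVF-ET replicate 3 with its second array turned gave SCNT minus IVF-ET differences of 0.28 for FADS2 and 0.41 for SLC22A5. The IVF-ET means were then 0.38 and 0.35, and 0 pathway genes were called over all animals. With its first array turned, the differences were -0.49 and -0.22 and the IVF-ET means 1.16 and 0.99. On that turn 6 pathway genes were called over all animals and 1 in IVF-ET, where all probes gave 718 and 79 calls. Scaling the arrays to a common spread gave 1 in SCNT. With arrays not averaged and the animal as a random block, 4 were called in SCNT, 1 in IVF-ET and 7 over all animals. All probes then gave 522, 23 and 650 calls. Fitting the animals of IVF-ET alone gave 2, and the AI sign as deposited gave 0 over all animals. Calls over all probes are not given for the scaling or for IVF-ET alone.

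Without 1 animal at a time, the count over all animals ran between 2 (without IVF-ET replicate 1) and 7 (without AI replicate 1). In SCNT it ran between 0 and 2 (without AI replicate 5, where 266 of all probes were called). In IVF-ET it ran between 0 and 1 (without SCNT replicate 5, where 21 of all probes were called), and in AI it was 0. Over all probes the calls in SCNT then ran between 42 (without SCNT replicate 1) and 325, and over all animals with AI turned between 167 (without IVF-ET replicate 1) and 733 (without SCNT replicate 5). Both were 0 when the second array of IVF-ET replicate 3 entered with its sign turned, and 286 and 718 when its first array did. The SCNT minus IVF-ET difference ran between 0.16 and 0.78 for SLC27A6, -0.50 and -0.16 for FADS2, and -0.25 and 0.13 for SLC22A5, with 0.11 without SCNT replicate 2. None of these differences passed the threshold under any alternative run. The few animals and the weak agreement between arrays limit what can be told.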
